A study of Mus musculus with 4 samples.

Results

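The Nfkb1 knockout was set against the wild type at day 5 of a bone marrow culture with Flt3 ligand. This comparison used 2 of the 4 libraries, chosen by their labelled genotype and day, and covered 11138 of the 26026 genes in the deposited table. The wild-type cells are labelled Wild-type (C57/B16) and the knockout cells Nfkb1-/- (C57/B16). Both were labelled BMDC, bone marrow-derived dendritic cells. They were grown in RPMI with 10% FBS, 2-BME, Pen/Strep and 100 ng/mL Flt3L, with fresh medium on day 3, so every library carries the Flt3L exposure. The remaining 2 libraries are the same genotypes at day 3 and share no library with the day 5 comparison. Polyadenylated RNA was sequenced, 1 library per genotype and day. The labels do not say whether the libraries came from separate animals, or which Nfkb1 allele was used. With 1 library per side there is no replicate check, so differences are given as values and no p-value is printed.

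Nfkb1 encodes p105, which is processed to p50, a subunit of the NF-kB transcription factors. Dimers of p50 with RelA or c-Rel activate inflammatory genes, whereas p50 homodimers lack a transactivation domain and can occupy kB sites without activating them. Flt3 ligand drives bone marrow progenitors towards conventional and plasmacytoid dendritic cells, and the IkB proteins hold NF-kB dimers in the cytoplasm until a signal releases them. The stated question of the series is how RelA and p50 act together while such cells differentiate.

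Values are RPKM, reads scaled by gene length and library total. A pair of values is given as knockout against wild type throughout. A difference is log2(RPKM + 1) of the knockout minus that of the wild type, and a gene counted as higher or lower when its difference was at least 1 in size. Ratios are ratios of RPKM with an exact 95% interval of the recovered reads, which covers counting error only. The library totals recovered from the RPKM steps ran from 15255070 to 16215214 reads, and from 69.8% to 74.59% of these lay in listed genes.

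The targeted gene was lower in the knockout but not absent. Nfkb1 stood at 64.7 against 114 RPKM at day 5 and 56.02 against 74.8 RPKM at day 3. The day 5 ratio was 0.568, 95% interval 0.547 to 0.5905, from 4102 and 7553 reads. Reads summed over a gene cannot show which exons remain, so the value neither settles nor contradicts the label. The other NF-kB subunits differed less. Rela, the p65 subunit, was at 22.4 against 27.97 RPKM (difference -0.31), and Rel, encoding c-Rel, was at 13.2 against 16.3 RPKM (-0.28). Nfkb2, which encodes p100, stood at 15.7 against 16.7 RPKM and Relb at 14.1 against 14.4 RPKM, differences of -0.08 and -0.03.

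At day 5, 95 genes were higher in the knockout, 0.853% of the 11138 compared, and 331 were lower, 2.97%. The differences of all compared genes had a median of 0.01, and 50.7% of genes were above 0. The 5th and 95th percentiles were -0.79 and 0.59. A difference of at least 2 was reached by 10 higher and 29 lower genes. The higher genes had a median level of 18.4 RPKM over both libraries and the lower genes one of 6.64 RPKM. The interval of the ratio lay off 1 for all 95 and all 331, and for 6663 of all compared genes.

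**Figure D1:**
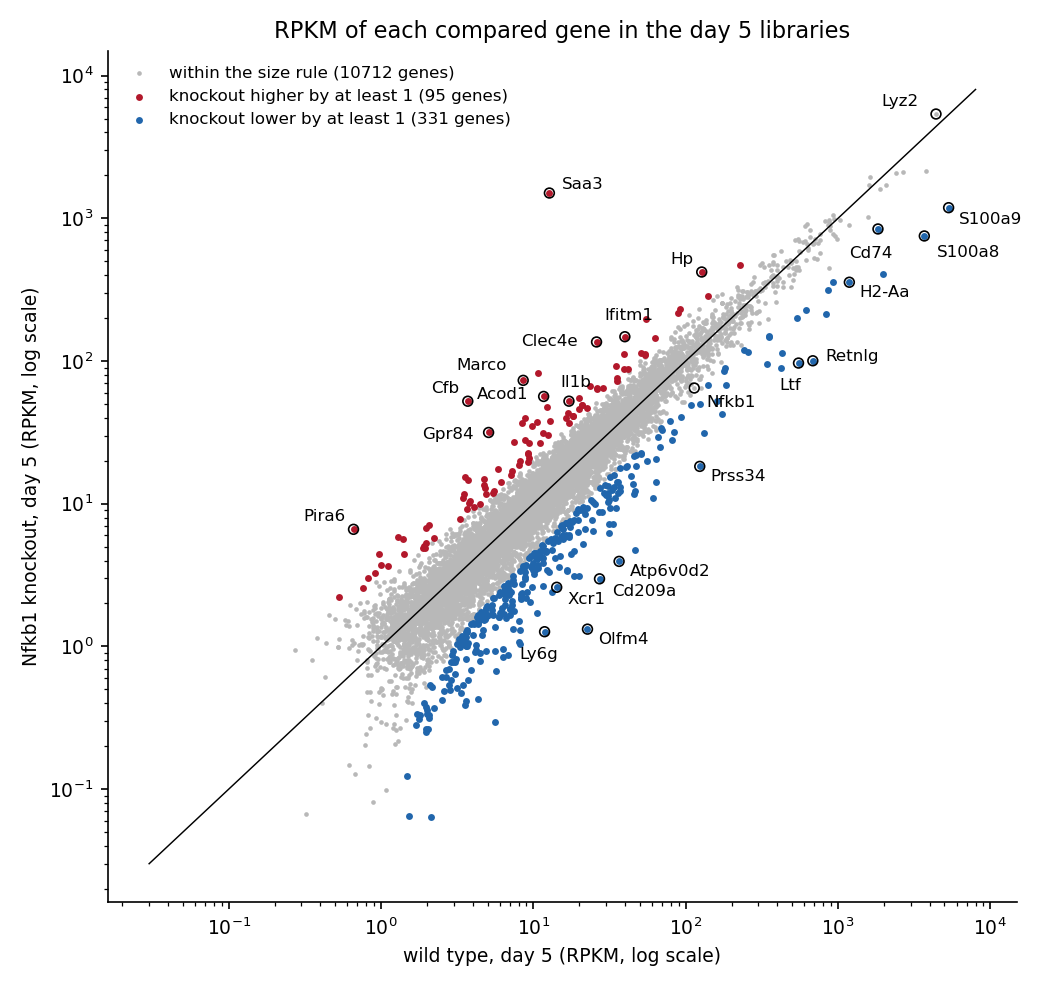
RPKM of 11138 genes in the wild-type (x axis) and Nfkb1 knockout (y axis) library at day 5, both on log scales. The line marks equal values, red points are the 95 higher genes, blue points the 331 lower genes, and rings mark labelled genes. Saa3 lies farthest above the line, and granulocyte genes such as S100a8, Ltf and Olfm4 lie below it.

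The largest higher difference was that of Saa3, an acute-phase serum amyloid A protein made by macrophages. It stood at 1504 against 12.7 RPKM at day 5 and 1002 against 33.5 RPKM at day 3. Both knockout libraries were far above both wild-type libraries, and at day 5 the ratio was 118, 95% interval 97.8 to 144. In the day 5 knockout Saa3 was among the 10 genes of highest RPKM. Cfb, complement factor B of the alternative pathway, was at 52.3 against 3.71 RPKM at day 5 and 68.9 against 20.6 RPKM at day 3 (day 5 ratio 14.1, 95% interval 12.02 to 16.6). Marco, a scavenger receptor for bacteria, was at 73.2 against 8.57 RPKM at day 5 and 30.8 against 8.27 RPKM at day 3 (day 5 ratio 8.54, 95% interval 7.51 to 9.73). For Cfb the wild-type value was lower at day 5 than at day 3, whereas for Marco the knockout value was higher at day 5 and the wild-type value was nearly the same on both days.

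Receptors followed in rank. Gpr84, a receptor for medium-chain fatty acids, stood at 31.6 against 5.08 RPKM at day 5 and 34.2 against 10.1 RPKM at day 3. Clec4e, the C-type lectin Mincle, stood at 136 against 25.99 RPKM at day 5 and 139 against 48.04 RPKM at day 3. In both, the knockout level was about the same on the 2 days and the wild-type level was lower at day 5. Cd14, the lipopolysaccharide co-receptor, was at 91.6 against 34.8 RPKM (1.37), and Pira6, an activating immunoglobulin-like receptor, was at 6.62 against 0.659 RPKM (2.198), with only 17 wild-type reads. Pira6 belongs to a family of near-identical genes, so its reads may be split between copies. Tarm1, another activating myeloid receptor, was at 14.7 against 3.71 RPKM (1.74). Further genes among the 15 largest higher differences were the NAD-consuming surface enzyme Cd38 at 36.8 against 8.42 RPKM (2.005), the surface antigen Ly6i at 47.9 against 12.4 RPKM (1.87), the glycosyltransferase Gbgt1 at 15.3 against 3.53 RPKM (1.85) and the MARCKS relative Marcksl1 at 197 against 55.2 RPKM (1.82).

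Of the cytokine ligands, 20 (of 34 listed) passed the filter, 2 were higher and none lower, with a median difference of -0.24. The higher ones were Il1b at 52.3 against 17.1 RPKM (1.56) and Il18 at 11.9 against 5.39 RPKM (1.02), both processed by inflammasomes. Il18 was at 0.99, short of the size rule, when the libraries were brought to equal median ratios, which left 1 higher ligand. Among 9 (of 17 listed) TNF superfamily ligands, Tnf was higher at 34.9 against 9.76 RPKM at day 5 and 38.3 against 17.8 RPKM at day 3, and lymphotoxin beta Ltb, at 7.29 against 16.9 RPKM, and the B cell survival factor Tnfsf13b, at 0.683 against 2.68 RPKM, were lower. Among 15 (of 30 listed) chemokine ligands, the neutrophil attractant Cxcl2 at 7.08 against 2.06 RPKM (1.399) and the monocyte attractant Ccl2 at 3.71 against 1.001 RPKM (1.23) were higher. The dendritic cell chemokine Ccl22 at 4.303 against 14.9 RPKM (-1.58) and the platelet chemokine Ppbp at 147 against 355 RPKM (-1.27) were lower. Most ligands past the filter stayed within the size rule.

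Effector genes were also mixed. Acod1, the enzyme that makes itaconate, stood at 56.5 against 11.7 RPKM at day 5 and 72.2 against 26.98 RPKM at day 3. Sod2, the mitochondrial superoxide dismutase, stood at 55.2 against 19.96 RPKM at day 5 and 60.7 against 23.8 RPKM at day 3, a difference of 1.42 at day 5 and 1.32 at day 3. The knockout values lay above both wild-type values for Acod1 and Sod2. The acute-phase list had 2 higher and 2 lower among 7 (of 19 listed) genes past the filter: haptoglobin, Hp, was at 421 against 127 RPKM (1.71), but lipocalin Lcn2 was at 212 against 838 RPKM (-1.98) and orosomucoid Orm1 at 0.584 against 3.74 RPKM (-1.58). Lcn2 is also a neutrophil granule gene, and those genes were lower together, as given further on. Of the effector enzymes, Mmp14 was higher at 115 against 50.8 RPKM, and Mmp9 at 42.9 against 174 RPKM and Mmp12 at 4.5 against 10.1 RPKM were lower. Mmp12 fell short of the rule, at -0.991, with libraries set to equal RPKM sums.

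Feedback regulators of NF-kB mostly stayed within the size rule. Of 26 IkB proteins and feedback regulators, 1 was higher and none lower, with a median of 0.07. That gene was Bcl3, an atypical nuclear IkB protein that binds p50 and p52 homodimers, at 46.3 against 19.8 RPKM at day 5 and 37.9 against 23.01 RPKM at day 3. Nfkbia, the main IkB alpha inhibitor, was at 93.6 against 76.9 RPKM (0.28), the ubiquitin-editing enzyme Tnfaip3 at 21.1 against 11.8 RPKM (0.78), and Nfkbie at 12.02 against 18.1 RPKM (-0.55). Socs3, a cytokine signalling inhibitor, at 10.9 against 3.44 RPKM (1.42), and Pim1, a kinase induced by cytokines, at 64.9 against 28.5 RPKM (1.16), were the 2 higher genes among 13 (of 15 listed) SOCS and Pim genes past the filter. Among 18 (of 19 listed) C/EBP family and granulocyte regulators past the filter, 1 was higher and 5 lower, 12 lay below 0 and the median was -0.27. The higher one was Cebpb, an activator of acute-phase genes, at 49.5 against 20.7 RPKM (1.22). The lower ones were Cebpe, the late granulocyte regulator, at 4.196 against 13.9 RPKM (-1.52), Ets1 at 5.64 against 15.7 RPKM (-1.33), and Gata2, Gata1 and Csf3r, given with their lineages further on. Of 26 (of 28 listed) early response transcription factors none was higher or lower, with a median of -0.07.

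The Sod2 and Alpk1 promoters are shown because these were the promoters of the 15 leading higher genes and Sod2 that held an NF-kB consensus. RefSeq windows (GRCm38.p6) from 250 bases before to 50 bases after each start were at hand for 13 of the 16 genes. The NF-kB consensus, searched on both strands, was in 2 of the 13 windows and in 4.51% of all 32851 windows. Each line gives 100 bases 5' to 3' on the gene's strand, with the match in capitals.
Alpk1, chr3:127780583-127780682, minus strand: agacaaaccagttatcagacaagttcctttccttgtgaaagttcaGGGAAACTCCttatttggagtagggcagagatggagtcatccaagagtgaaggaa
Sod2, chr17:13007711-13007810, plus strand: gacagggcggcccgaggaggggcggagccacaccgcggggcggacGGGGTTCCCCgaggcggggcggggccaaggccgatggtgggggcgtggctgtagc
The match begins 110 bases before the Alpk1 start and 83 bases before the Sod2 start. Alpk1, a kinase that senses a bacterial sugar, stood at 27.3 against 7.51 RPKM at day 5 and 23.8 against 7.61 RPKM at day 3, so this gene was higher in both knockout libraries, as Sod2 was. For Saa3, Marco and the other genes searched, only these windows were looked at, and distal sites were not.

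**Figure D2:**
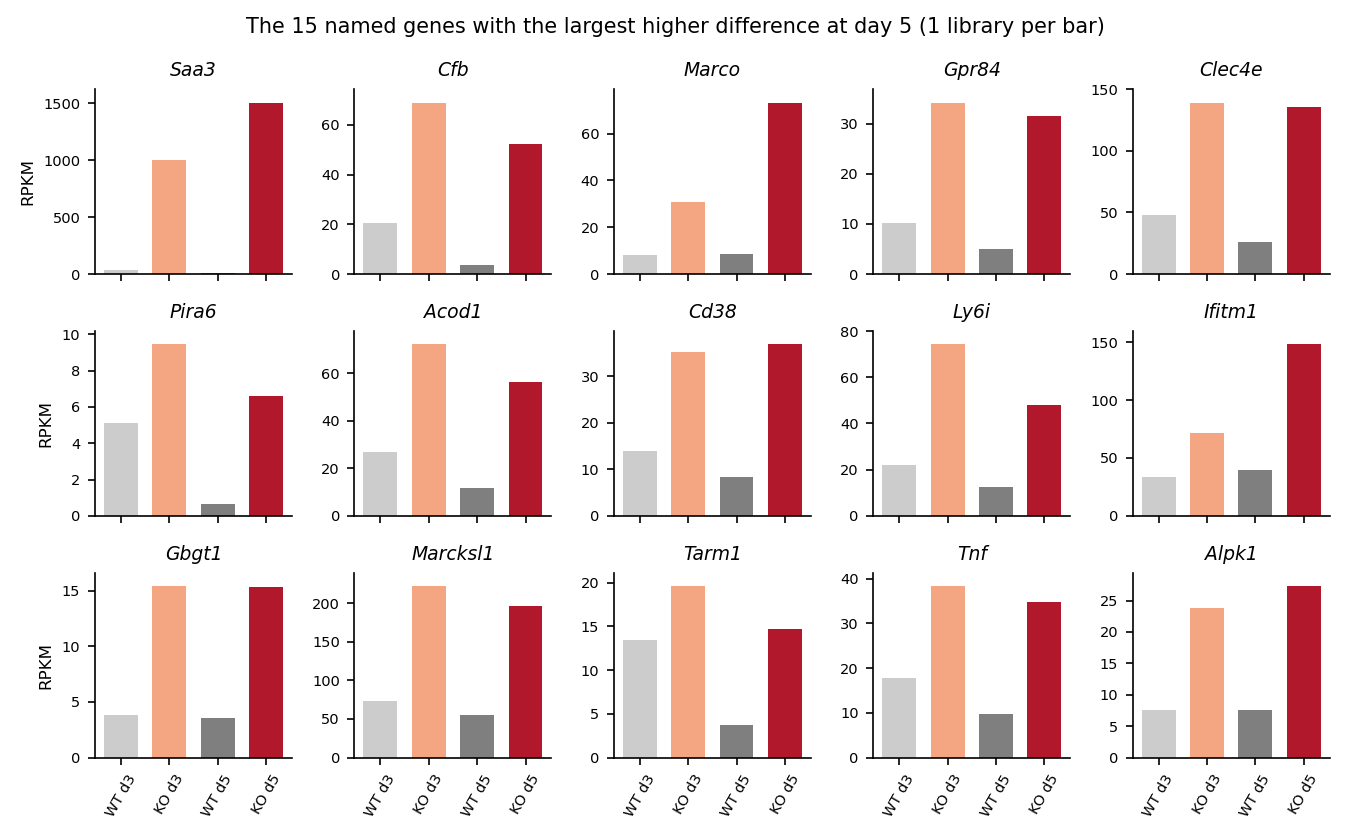
RPKM (y axis, from 0, a scale of its own for each gene) of the 15 named genes with the largest higher differences in each of the 4 libraries (WT, wild type; KO, Nfkb1 knockout; d3 and d5, day 3 and day 5), 1 library per bar. The knockout bar is the taller one on both days for all 15, with Pira6 and Tarm1 closest at day 3.

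Markers of monocytes and macrophages were mixed, with a median above 0. Of 38 (of 42 listed) genes past the filter 5 were higher and 3 lower, with a median of 0.29 against 0.01 for all genes. Of the 38, 22 lay above 0 and 16 below. The higher ones were Marco, Clec4e and Cd14, given above, the proteoglycan Vcan at 3.66 against 1.12 RPKM, and Ly6c2, the antigen of classical monocytes, at 469 against 228 RPKM. Csf1r, the M-CSF receptor, was at 475 against 309 RPKM (0.62), and lysozyme Lyz2 at 5383 against 4399.8 RPKM (0.29). The abundant Apoe, at 2100 against 2662 RPKM (-0.34), and Ctsd, at 1029 against 1579 RPKM (-0.62), lay below 0. The lower ones were the macrophage genes Adgre1 at 22.03 against 47.5 RPKM and Gpnmb at 201 against 535 RPKM, and Chil3 at 114 against 427 RPKM. The summed level of the list was 12849.6 against 12954 RPKM at day 5, so the sum was nearly level while the median lay above 0. The part of these cells in the higher inflammatory genes was not tested. In bulk RNA, more or fewer cells of a type and more or less RNA per cell cannot be told apart.

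Few interferon-stimulated genes passed the size rule. Of 45 antiviral genes on the list, 1 was higher and none lower, and the median was 0.28. The higher gene was Ifitm1, a membrane protein that restricts virus entry, at 148 against 39.9 RPKM at day 5 and 71.3 against 33.4 RPKM at day 3. Its relatives Ifitm2 and Ifitm3 were at 276 against 199 RPKM and 497 against 374 RPKM, differences of 0.47 and 0.41. The ubiquitin-like Isg15 was at 37.3 against 20.4 RPKM (0.84) and the transcription factor Irf7 at 93.6 against 68.03 RPKM (0.46). Of the guanylate-binding proteins and related GTPases, 13 (of 18 listed) passed the filter, 4 were higher and none lower, but 5 lay below 0 and the median, 0.24, was close to that of the antiviral list. The higher ones were Gbp5 at 17.4 against 5.87 RPKM, Gbp2 at 40 against 16.4 RPKM, Gbp3 at 11.8 against 4.91 RPKM and Iigp1 at 5.32 against 1.97 RPKM, and the lowest was Igtp at 20.2 against 25.9 RPKM (-0.34). The lymphocyte GTPases of the Gimap family were lower, 4 of 8, led by Gimap3 at 0.848 against 6.36 RPKM and Gimap4 at 1.96 against 7.22 RPKM, and their median was -1.02 at day 5 and -1.17 at day 3.

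Class II antigen presentation genes were lower in the knockout. Of 19 (of 20 listed) genes past the filter, 10 were lower and none higher, and 17 lay below 0. The median difference was -1.04 at day 5 and -0.73 at day 3. The chain genes were abundant. H2-Aa stood at 357 against 1187 RPKM at day 5 and 333 against 651 RPKM at day 3 (day 5 ratio 0.3003, 95% interval 0.292 to 0.309). H2-Ab1 was at 355 against 933 RPKM and H2-Eb1 at 229 against 616 RPKM, differences of -1.39 and -1.42. The wild-type level of all 3 chain genes was higher at day 5 than at day 3, and the knockout level differed less from its own day 3 value.

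Other genes of the class II loading pathway followed. The invariant chain Cd74 was at 842 against 1830.0 RPKM at day 5 and 748 against 1333 RPKM at day 3 (-1.12 at day 5). The H2-O chains H2-Oa, at 9.29 against 32 RPKM (-1.68), and H2-Ob, at 11.8 against 35.8 RPKM (-1.52), were lower. The H2-DM chain H2-DMa, at 43.8 against 70.2 RPKM (-0.67), did not pass the size rule. Ciita, the master activator of class II transcription, was at 4.67 against 11.4 RPKM (-1.13), but the DNA-binding subunits that recruit it differed little, with Rfx5 at 6.25 against 7.21 RPKM (-0.18), Rfxank at 7.71 against 8.65 RPKM (-0.15) and Rfxap at 6.58 against 5.77 RPKM (0.16). The co-stimulatory ligands Cd80 (-0.17) and Cd86 (0.005) and the protease Ctss (-0.11) also stayed within the rule. Class I genes had 1 lower and none higher of 23 (of 26 listed) past the filter, with a median of -0.16. The class I light chain B2m was at 1954 against 1633 RPKM (0.26) and the heavy chains H2-K1 and H2-D1 at 433 against 556 RPKM and 408 against 518 RPKM; class I heavy chains are near-identical copies, so their reads may be split.

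Promoters of class II genes are shown because these genes were lower together and carry a shared promoter module, in which RFX binds an X box and NF-Y binds a Y box. RefSeq windows (GRCm38.p6) were at hand for 8 of the 9 class II genes searched, and not for H2-Ab1. The Y box core GATTGG, searched on both strands, was in 8 of the 9 windows of these genes, and in 16.1% of all 32851 windows. The search was chosen after the values had been seen. Each line gives 100 bases 5' to 3' on the gene's strand, with each match in capitals.
H2-Aa, chr17:34287824-34287923, minus strand: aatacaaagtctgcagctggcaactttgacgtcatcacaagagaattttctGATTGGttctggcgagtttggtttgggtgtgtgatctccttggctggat
H2-Eb1, chr17:34305760-34305859, plus strand: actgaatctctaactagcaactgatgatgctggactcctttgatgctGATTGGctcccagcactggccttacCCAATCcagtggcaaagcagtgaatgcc
H2-DMb1, chr17:34153082-34153181, plus strand: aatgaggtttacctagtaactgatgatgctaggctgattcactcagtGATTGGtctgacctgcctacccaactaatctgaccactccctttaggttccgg
H2-Ob, chr17:34238800-34238899, plus strand: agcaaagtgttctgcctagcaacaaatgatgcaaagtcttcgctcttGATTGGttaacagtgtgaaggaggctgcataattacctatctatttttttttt
The first match begins 49 bases before the start of H2-Aa, 60 before that of H2-Eb1, 62 before that of H2-DMb1 and 58 before that of H2-Ob. In the genes not shown it begins 44 bases before the start of H2-Oa, 91 for H2-DMb2, 101 for H2-Eb2 and 199 for H2-DMa. Whether each match is the Y box of the module was not tested. H2-DMb1, with the same core, was at 51.8 against 97.3 RPKM (-0.896), short of the size rule.

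Marker lists of the dendritic cell subsets had medians below 0, the lowest that of cDC1, the cross-presenting conventional subset. Of 19 (of 20 listed) cDC1 genes past the filter 11 were lower, and all 19 lay below 0, with a median of -1.02 at day 5 and -0.15 at day 3. The chemokine receptor Xcr1 stood at 2.596 against 14.2 RPKM at day 5 and 1.34 against 3.003 RPKM at day 3, and Clec9a, a receptor for dead cells, at 6.39 against 24.8 RPKM at day 5 and 3.37 against 7.02 RPKM at day 3. In the wild type both were several times higher at day 5 than at day 3. In the knockout both were also higher at day 5 than at day 3, but below the wild-type day 3 value. Tlr11 was at 1.03 against 8.18 RPKM (-2.18), Tlr3 at 2.64 against 11.5 RPKM (-1.78) and the hydrolase Naaa at 27.97 against 80.7 RPKM (-1.496). The cDC1 regulators Irf8, at 119 against 241 RPKM at day 5 and 94.1 against 109 RPKM at day 3, and Batf3, at 2.28 against 6.88 RPKM at day 5 and 3.72 against 3.87 RPKM at day 3, were nearly level between genotypes at day 3 and lower in the knockout at day 5.

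For cDC2, the subset that presents to CD4 T cells, 4 of 16 (of 19 listed) genes past the filter were lower and none higher, with a median of -0.404. These were the lectins Cd209a at 2.98 against 27.2 RPKM at day 5 and 6.86 against 11.7 RPKM at day 3 and Clec10a at 6.63 against 21.9 RPKM at day 5 and 9.098 against 13.3 RPKM at day 3, Ltb, and Cd4 at 2.76 against 7.46 RPKM. Cd209a had the larger of the lectin differences, -2.83 against -1.59. The cDC2 regulator Irf4 (-0.14) and the surface proteins Sirpa (0.12) and Itgam (-0.08), which monocytes also carry, stayed near 0. In the cDC2 list 4 of the 16 genes lay above 0, and its summed level was 722 against 705 RPKM.

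Plasmacytoid dendritic cell markers had 8 lower and 1 higher of 26 (of 28 listed) past the filter, with a median of -0.68 at day 5 and -0.18 at day 3. Siglech, their lectin receptor, stood at 15.7 against 43.5 RPKM at day 5 and 11.6 against 23.1 RPKM at day 3, and the homing receptor Ccr9 at 8.68 against 26.8 RPKM at day 5 and 7.73 against 13.2 RPKM at day 3. The lineage regulator Tcf4 was at 18.6 against 20.5 RPKM (-0.14), so it differed little, and the higher gene was Ly6c2, which monocytes share. Plac8, of highest level in the list, was at 693 against 555 RPKM (0.32). In this list 7 of the 26 genes lay above 0, and its summed level was 2023 against 2072 RPKM. Of 33 (of 34 listed) dendritic cell transcription factors past the filter 4 were lower: Irf8, Batf3, Zbtb46 at 1.01 against 3.69 RPKM and Zfp366 at 1.695 against 4.61 RPKM. Irf8 was close to the size rule (-1.01) and fell short of it, at -0.976, with libraries set to equal RPKM sums. Flt3, the receptor for the culture's growth factor, was at 56.6 against 84.8 RPKM at day 5 and 32.2 against 29.9 RPKM at day 3 (-0.58 at day 5), and Itgax, the CD11c integrin, was at 20.03 against 55.3 RPKM (-1.42). Flt3, Itgax, class II and subset genes, which define the labelled cell type, were thus detected in both day 5 libraries, beside genes of other lineages given next.

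**Figure D3:**
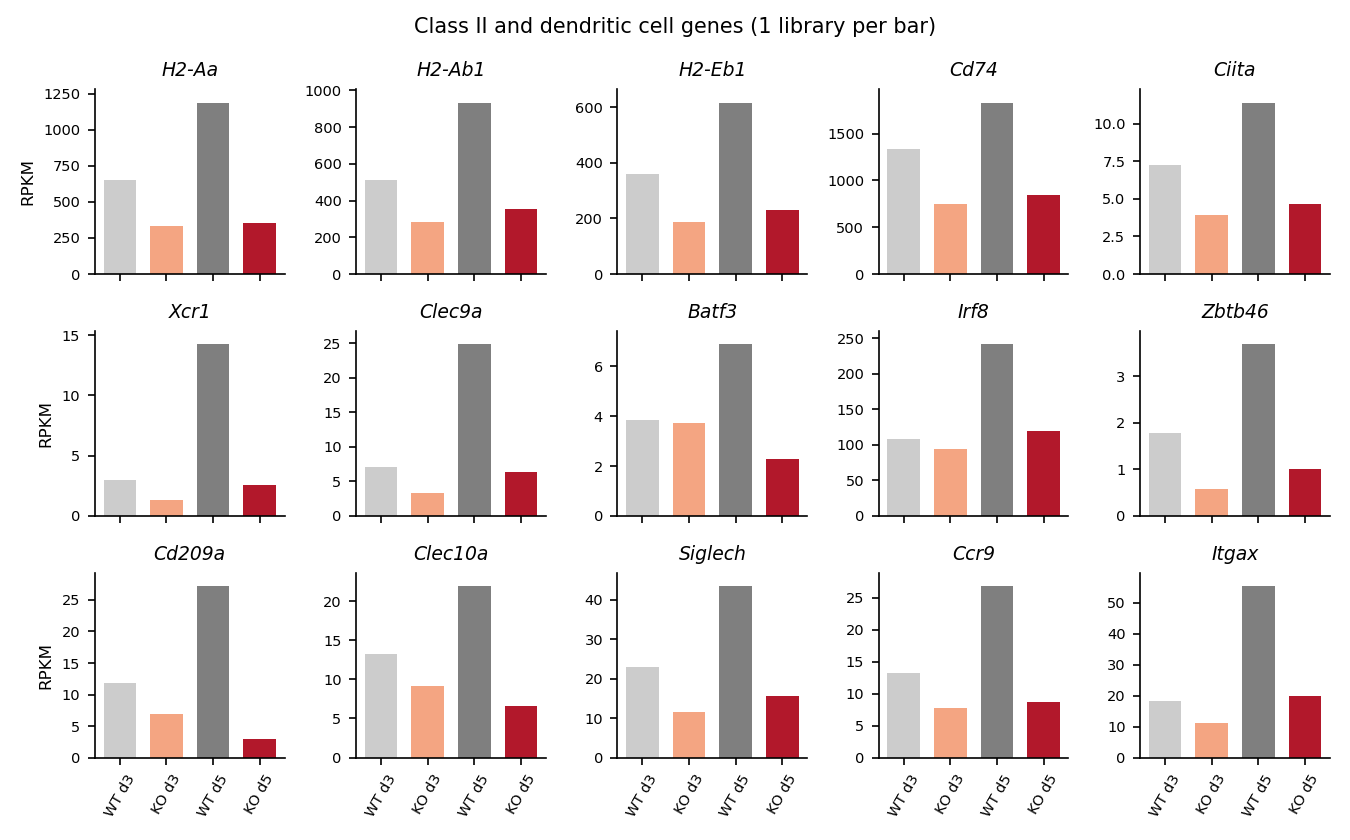
RPKM (y axis, from 0, a scale of its own for each gene) of class II genes and of cDC1, cDC2 and plasmacytoid dendritic cell genes in each of the 4 libraries (WT, wild type; KO, Nfkb1 knockout; d3 and d5, day 3 and day 5), 1 library per bar. The wild-type day 5 bar is the tallest in all 15 panels.

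Neutrophil genes made up the largest block of lower genes among the 70 lists. Of 36 (of 37 listed) late granule and maturity genes past the filter 27 were lower and 1 was higher, with a median of -1.62 at day 5 and -0.46 at day 3. The alarmin S100a9 stood at 1187 against 5325 RPKM at day 5 and 9254 against 13629.8 RPKM at day 3, and its partner S100a8 at 752 against 3687 RPKM at day 5 and 7005 against 8077 RPKM at day 3. S100a9 had the highest RPKM of all genes in the day 5 wild type and ranked 10th in the day 5 knockout. The sum of the list was 4488 against 15929 RPKM at day 5 and 27924 against 38104 RPKM at day 3, so both genotypes were lower on day 5 and the knockout was the lower one on each day.

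Granule proteins led that list. Olfm4, of specific granules, was at 1.32 against 22.7 RPKM at day 5 and 20.3 against 52.1 RPKM at day 3. Lactoferrin Ltf was at 96.8 against 551 RPKM (-2.496), the cathelicidin Camp at 88.8 against 424 RPKM (-2.24), Ngp at 408 against 1969 RPKM (-2.27) and the resistin-like Retnlg at 100.4 against 683 RPKM (-2.75). The surface antigen Ly6g was at 1.27 against 11.8 RPKM, with 18 knockout reads, and the chemokine receptor Cxcr2 at 7.26 against 31.5 RPKM. Haptoglobin was the higher member, and the oxidase subunit Cybb, at 389.8 against 281 RPKM (0.47), which monocytes also make, lay above 0.

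Primary granule genes, made earlier in neutrophil development, were less uniform. Of 16 (of 18 listed) past the filter 4 were lower, with a median of -0.32. The lower ones were Elane, Fcnb, the regulator Cebpe given above and Nkg7, which is also on the T and NK cell list. Nkg7 fell short of the rule, at -0.985, with equal RPKM sums. Elastase Elane was at 22.7 against 51.1 RPKM (-1.13) and Fcnb at 3.42 against 16.7 RPKM (-2.001), whereas myeloperoxidase Mpo was at 102 against 144 RPKM (-0.49), proteinase 3, Prtn3, at 209 against 105 RPKM (0.98) and cathepsin G, Ctsg, at 80.4 against 54.4 RPKM (0.56). Csf3r, the G-CSF receptor, was at 15.9 against 34.05 RPKM (-1.06).

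Basophil, mast cell and eosinophil markers were lower at day 5, with a day 3 median nearer 0. Of 25 (of 32 listed) past the filter 14 were lower and none higher, with a median of -1.101 at day 5 and -0.15 at day 3. The basophil proteases Prss34, at 18.3 against 124 RPKM at day 5 and 60.7 against 72.5 RPKM at day 3, and Mcpt8, at 10.9 against 61.3 RPKM at day 5 and 35.5 against 44.9 RPKM at day 3, were higher in the day 5 than the day 3 wild type and lower in the day 5 than the day 3 knockout. Cpa3, a mast cell carboxypeptidase, was at 6.21 against 31.3 RPKM (-2.16), the IgE receptor chain Fcer1a at 1.33 against 7.38 RPKM (-1.85) and the eosinophil granule protein Prg2 at 94.9 against 341 RPKM (-1.83). Gata2, a regulator of these lineages, was at 2.34 against 6.45 RPKM (-1.16).

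Megakaryocyte and platelet markers gave a like picture. All 28 listed genes passed the filter, 14 were lower and none higher, and the median was -0.98 at day 5 and 0.08 at day 3. The fibrinogen receptor chain Itga2b stood at 49.8 against 125 RPKM at day 5 and 47.2 against 44.9 RPKM at day 3, and the collagen receptor Gp6 at 4.74 against 13.3 RPKM at day 5 and 4.23 against 3.47 RPKM at day 3. The wild type was higher at day 5 than at day 3 for both, and the knockout was close to its day 3 value. Pf4, platelet factor 4, was at 129 against 232 RPKM (-0.84), Vwf at 11.9 against 30.8 RPKM (-1.31) and the platelet tubulin Tubb1 at 14.3 against 35.6 RPKM (-1.26). The lineage regulator Gata1 was at 4.44 against 10.7 RPKM (-1.11).

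Other lineages had fewer lower genes. Of 14 (of 26 listed) erythroid genes past the filter 3 were lower, 2 of them beta globins. Hbb-bs stood at 2.34 against 8.25 RPKM at day 5 and 42.6 against 199 RPKM at day 3, and Hbb-b1 is a near-identical copy at 2.37 against 8.36 RPKM. Both entries hold 23 against 85 reads at day 5, so the same reads were probably counted for each. The 2 globin calls are then 1 measurement. B cell markers had 7 lower and 1 higher of 25 (of 30 listed) past the filter, with a median of -0.58. Cd79a, a signalling chain of the B cell receptor, was lower at 37.7 against 79.3 RPKM. Dntt, the terminal transferase of early lymphoid progenitors, was the higher one at 12.8 against 4.81 RPKM. T and NK cell markers had 5 lower of 18 (of 32 listed) past the filter (median -0.61), of which Lat and Nkg7 fell short, at -0.973 and -0.985, with equal RPKM sums, and stromal and endothelial markers had 3 lower and 1 higher of 15 (of 30 listed) (median -0.58). In all, 261 of the 11138 compared genes, 2.34%, were on at least 1 of the 12 cell type marker lists, against 98 of the 331 lower genes, 29.6%, and 8 of the 95 higher genes, 8.42%. Lists of lineages other than dendritic cells and monocytes held 1.55% of the compared genes, 75 or 22.7% of the lower genes and 3 or 3.16% of the higher genes. The lists were chosen with these results known, so the shares are descriptions.

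**Figure D4:**
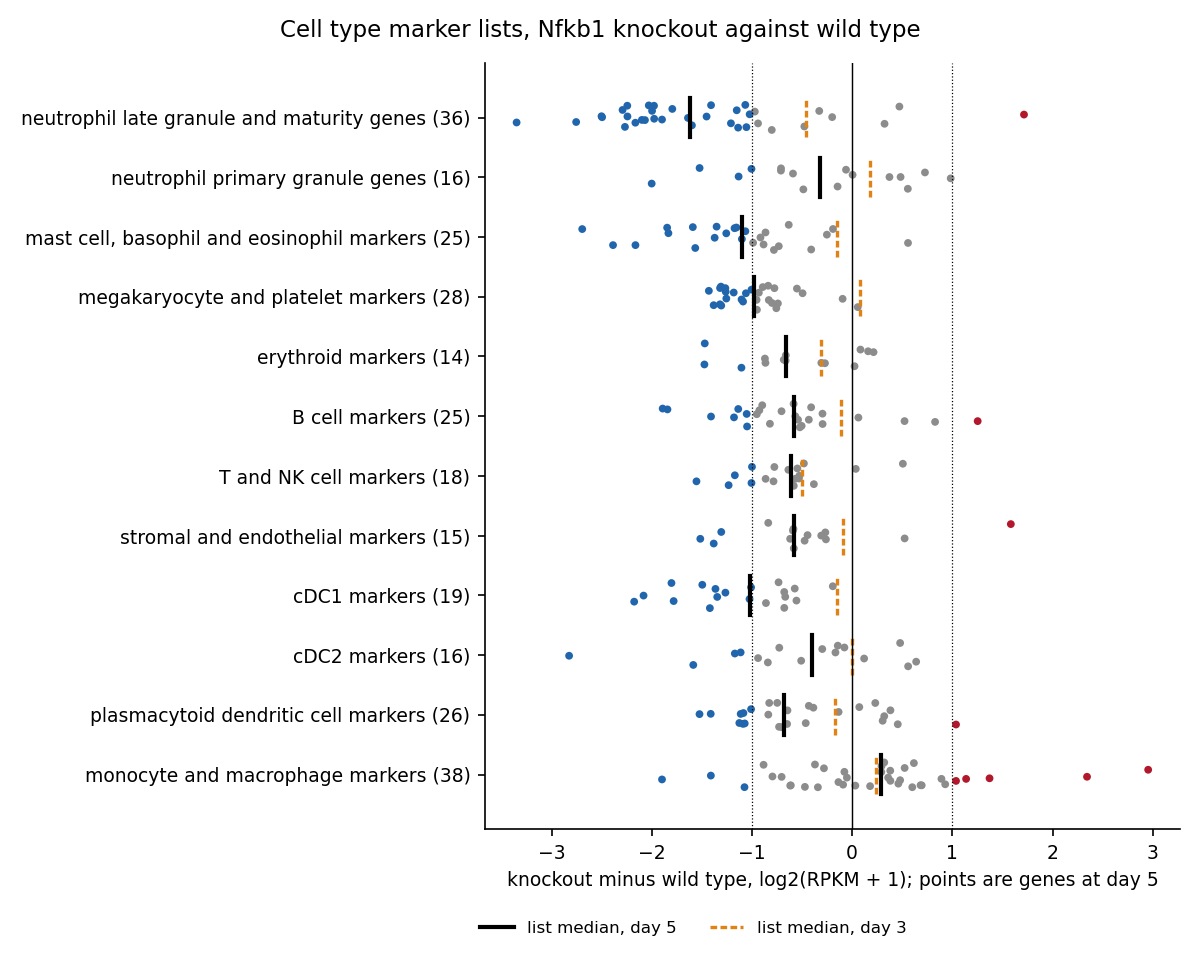
Knockout minus wild type in log2(RPKM + 1) (x axis) for each gene of 12 cell type marker lists (y axis, with the number of genes past the filter); points are genes at day 5, red if higher and blue if lower by at least 1 (dotted lines). The day 5 median (black bar) is below 0 for 11 lists and above 0 for monocytes and macrophages, and the day 3 median (dashed orange bar) lies nearer 0 than the day 5 median in all 12.

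Stem and early progenitor genes differed little against these mature markers. Of 26 (of 35 listed) past the filter 1 was lower, with a median of 0.04. Cd34 was at 77.1 against 73.9 RPKM (0.06), Myb at 33.03 against 26.5 RPKM (0.31) and the stem cell factor receptor Kit at 5.67 against 10.9 RPKM (-0.83). The lower gene was Gata2.

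Glucose metabolism genes were higher on balance. Of 26 (of 27 listed) glycolysis genes past the filter 6 were higher and 2 lower, with a median of 0.40 at day 5 and 0.42 at day 3. The enzymes Tpi1, at 232 against 92.1 RPKM at day 5 and 198 against 115 RPKM at day 3, and Pfkl, at 30.4 against 12.4 RPKM at day 5 and 30.7 against 17.1 RPKM at day 3, and the glucose transporter Slc2a1, at 22.3 against 9.24 RPKM at day 5 and 22.99 against 11.5 RPKM at day 3, were higher in both knockout libraries than in either wild-type library. The lactate transporters Slc16a1, at 13.6 against 4.71 RPKM, and Slc16a3, at 22.8 against 9.23 RPKM, and the kinase Pgk1, at 111 against 54.5 RPKM, were the other higher genes, with Pgk1 short of the rule, at 0.992, under equal median ratios. The transporter Slc2a3, at 18.2 against 47.02 RPKM, and the dehydrogenase Ldhb, at 1.43 against 4.05 RPKM, were lower. Slc2a3 is also abundant in neutrophils, whose genes were lower in the same library; the part of that was not tested. Gapdh was at 1.63 against 1.27 RPKM, and near-identical copies of it make that level uncertain. Of 17 (of 22 listed) hypoxia genes past the filter 3 were higher, the mitophagy gene Bnip3 at 17.01 against 7.21 RPKM, the prolyl hydroxylase Egln3 at 12.3 against 5.495 RPKM and Ankrd37 at 7.83 against 3.29 RPKM.

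Genes of amino acid synthesis included further higher members, and lipid genes were mixed. Of 22 (of 29 listed) serine, asparagine and stress response genes past the filter 4 were higher and none lower: asparagine synthetase Asns at 14.9 against 4.72 RPKM at day 5 and 8.37 against 5.79 RPKM at day 3, the first enzyme of serine synthesis Phgdh at 40.9 against 18.3 RPKM, and the hydroxymethyltransferases Shmt1 at 18.6 against 8.08 RPKM and Shmt2 at 63.5 against 26.2 RPKM. Their inducer Atf4 was at 103 against 87.8 RPKM (0.23) and the stress factor Ddit3 at 10.3 against 12.3 RPKM (-0.23), so neither passed the size rule. Of 20 (of 21 listed) fatty acid and lipid handling genes past the filter 1 was higher and 2 lower, with a median of 0.01. The desaturase Scd2 was higher at 67.4 against 23.5 RPKM (1.48). Scd1 was lower at 4.69 against 11.1 RPKM (-1.09), as was Dgat1 at 10.6 against 23.9 RPKM (-1.10). Of 30 (of 32 listed) cholesterol genes past the filter none was higher or lower. Spermidine synthase Srm was at 49.2 against 20.9 RPKM (1.198). The list of eicosanoid synthesis and related lipid genes, the receptor Ltb4r1 among them, had 2 higher and 5 lower of 22 (of 26 listed) past the filter, with a median of -0.27. The lipase Pla2g7 at 218 against 89.4 RPKM was higher, and the lipoxygenase Alox5, at 5.19 against 21.05 RPKM, and the prostaglandin-degrading Hpgd, at 2.42 against 13.2 RPKM, were lower.

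Growth-related lists had few genes past the size rule, and several lay above 0 in nearly every member. All 36 nucleolar ribosome biogenesis genes past the filter were above 0, with a median of 0.67, but only nucleophosmin Npm1, at 285 against 141 RPKM at day 5 and 177 against 114 RPKM at day 3, was called, and it fell short, at 0.985, once libraries were rescaled to a common median ratio. DNA replication genes had 46 of 49 above 0 (median 0.43) and mitosis genes 40 of 42 (median 0.45). The Myc network was split, with 5 genes above and 6 below 0 (median -0.06), as were cyclin D and CDK inhibitor genes, 6 and 6 (median 0.05). Myc, an activator of ribosome biogenesis, was at 40.4 against 24.8 RPKM (0.68), and 2 genes of its network were lower, its relative Mycl at 3.62 against 14.7 RPKM (-1.76) and the Myc antagonist Mxd1 at 11.05 against 34.5 RPKM (-1.56). Mycl is also a dendritic cell gene and Mxd1 is abundant in neutrophils. All 30 proteasome genes were above 0 (median 0.39), 29 after that rescaling. So were all 40 genes of the respiratory chain and ATP synthase (median 0.28), 39 after that rescaling, whereas the 50 cytosolic ribosomal proteins had 33 above and 17 below 0 and a median of 0.06. RPKM are shares of a library, so lists can lie above 0 where abundant genes such as those of neutrophils lie below it; the part of this was not tested.

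**Figure D5:**
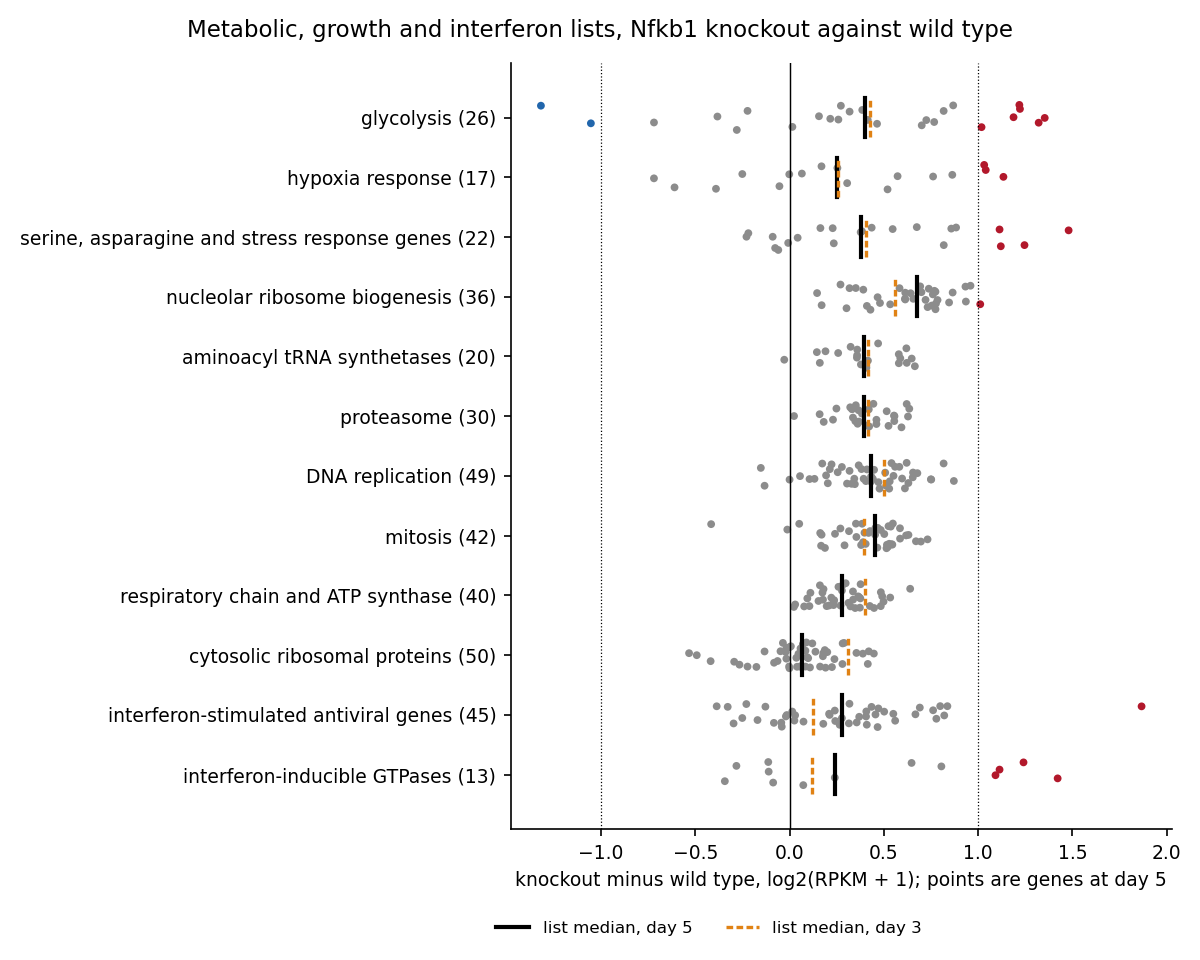
Knockout minus wild type in log2(RPKM + 1) (x axis) for each gene of 12 metabolic, growth and interferon lists (y axis, with the number of genes past the filter); points are genes at day 5, red if higher and blue if lower by at least 1 (dotted lines), with the list median at day 5 (black bar) and day 3 (dashed orange bar). All 12 day 5 medians are above 0, and the nucleolar list has the highest at 0.67.

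Set beside day 3, the higher genes were mostly in the same direction already. Of the 95 genes higher at day 5, 33 were higher by the size rule at day 3 as well, and 93 had a day 3 difference above 0, with a median of 0.89. Of the 331 lower genes, 32 were lower at day 3, 280 had a difference below 0 and the median was -0.43. For all genes the day 3 median was 0.14. At day 3, 75 genes were higher and 63 lower. The lower count differed more between the days than the higher count, and with 1 library per genotype and day this has no test. Lists differed in this. Megakaryocyte, basophil and cDC1 medians were between -0.15 and 0.08 at day 3 and between -1.10 and -0.98 at day 5, whereas the glycolysis median was 0.42 and 0.40. Members of the cDC1 list varied at day 3, with Xcr1 and Clec9a at ratios of 0.447 and 0.480 and Naaa and Id2 at 1.03 and 1.14. Other lists were already low at day 3. The Gimap median was -1.17 at day 3, with 4 lower on each day, the class II median was -0.73, and the T and NK cell median was -0.503. T and NK cell markers had 7 lower at day 3 against 5 at day 5, and erythroid markers 6 against 3.

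Of the 15 genes with the largest lower differences, 3 were on no list. Atp6v0d2, a subunit of the vacuolar proton pump found in macrophages and osteoclasts, stood at 3.94 against 36.5 RPKM at day 5 and 5.86 against 12.6 RPKM at day 3. The retroviral-like protease Asprv1 was at 0.297 against 5.59 RPKM (-2.35), with 7 knockout reads, and the retrotransposon-derived Rtl8c at 3.14 against 19.9 RPKM (-2.34). Atp6v0d2 was higher in the wild type at day 5 than at day 3, and its lowest level was in the day 5 knockout. Stfa2l1, of the stefin A family of protease inhibitors, was at 3.14 against 18.6 RPKM (-2.24), and near-identical copies may share its reads. The remaining 11 were neutrophil, basophil and dendritic cell genes described above.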

How the data were processed

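Cells were harvested into trizol, RNA was purified, and a Kapa mRNA kit gave the libraries, per the labels' protocols. HISAT2, SAMtools and the mm9 build are named, without versions, per the submitters' processing notes; counting tool, annotation and strand use were not given in the sources used here. As deposited, the authors' values are RPKM per the column headers, for 26026 genes and 4 libraries.

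Each RPKM is a whole number of reads times a step set by gene length and library total, which gave back reads and length for all 26026 genes (tolerance 0.003 reads). For 465 genes the multiple came from a reference transcript. Only 22187 genes had a reference length, and elsewhere reads may be too few by a whole factor. No value was 0, and 7945 genes had 1 read in every library, so 1 read may stand for none. No molecular identifiers are stated, so reads may not be independent molecules and intervals may be too narrow even for counting error.

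Genes with means of at least 1 RPKM and 20 reads over the 4 libraries were compared as log2(RPKM + 1), pseudocount 1, without further scaling. A gene that passed through 1 high library had to differ, so counts over a list are descriptions, set beside the median of all genes. The 70 lists and their members were chosen with earlier results of these data known. Genes were named by rule: the 5 NF-kB subunits, Sod2, Flt3, the 15 largest differences each way and, per list, up to 6 past the size rule and up to 3 of highest level. The ranking skipped unnamed, small RNA, receptor-segment and sex-linked genes. Other list members were named after their values were seen. Some genes that the rule names are not reported here. With 1 library per group no test was run. Alternatives were other pseudocounts, filters, scalings and a size rule of 1.5. Python 3.11.15, numpy 2.4.6, pandas 2.3.3, scipy 1.17.1 and matplotlib 3.10.9 were used, and the recovery was tested on simulated data.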

Additional observations from a re-analysis of the deposited data

Results flagged for a closer look

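The pseudogene Ubb-ps went in opposite directions on the 2 days. Its difference was -6.47 at day 3, at 0.7895 against 157 RPKM from 9 and 1685 reads, and 1.46 at day 5, at 4.43 against 0.971 RPKM from 48 and 11 reads. It was the only 1 of the 426 genes past the size rule at day 5 that passed it the other way at day 3. The difference between the days was not tested, since each value comes from 1 library, and reads of this copy may be shared with the ubiquitin gene Ubb.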

How the results depend on the processing

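The counts of higher and lower genes depended on the pseudocount and on the size rule. With a pseudocount of 0.1 RPKM they were 152 and 557, which hold all 95 and 331 of the reported calls, and with 5 RPKM they were 46 and 97, all among the reported ones. With a mean of at least 5 RPKM the lower count was 216 and the higher count 81. A size rule of 1.5 left 22 and 88. The larger pseudocount shrinks differences of low genes by construction, and the stricter filter tests 7967 genes. No minimum of reads, no filter and both rescalings kept the counts within 1.5 times, at 85 to 141 higher and 311 to 397 lower, with a median of all genes between -0.02 and 0.03. The acute-phase median changed sign, to 0.51 with a mean of at least 5 RPKM and to 0.00237 with no filter, and the effector enzyme median became -0.00903 with no filter, since these lists then hold other members. The named calls depended on the pseudocount too: with 5 RPKM, 82 of the 173 fell under the size rule. Under the rescalings, 4 higher named calls (Il18, Itga4, Npm1, Pgk1) fell under it with equal median ratios. With equal RPKM sums 5 lower ones (Irf8, Lat, Ltb4r1, Mmp12, Nkg7) did. Read intervals cover counting only, and the spread between libraries of a group is not known. No paired analysis was possible because the labels give no replicate numbers and each group has 1 library.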

Other observations

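Several higher genes outside the lists are known from mitochondria, nucleotide metabolism and protein folding. They were chosen after their values were seen and are given as values only. The mitochondrial chaperonin Hspd1 stood at 76.4 against 35.6 RPKM at day 5 and 53.9 against 28.8 RPKM at day 3. Cad, the enzyme that starts pyrimidine synthesis, was at 9.95 against 4.47 RPKM at day 5 and 7.29 against 4.28 RPKM at day 3, and the pyrophosphatase Ppa1 at 46.7 against 22.6 RPKM at day 5 and 35.6 against 18.3 RPKM at day 3. The cytokine Mif was at 87.4 against 39.5 RPKM at day 5 and 68.3 against 38.2 RPKM at day 3. Ripk3, a kinase of necroptosis, was at 19.9 against 8.14 RPKM at day 5 and 14.04 against 11.1 RPKM at day 3. In all 5 the knockout was above the wild type on both days.

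Signalling and surface genes outside the lists were among the lower ones, chosen in the same way. The tetraspanins Cd9 and Cd63 stood at 67.4 against 183 RPKM at day 5 and 96.5 against 126 RPKM at day 3 and 21.5 against 45.7 RPKM at day 5 and 35.2 against 44.7 RPKM at day 3. Entpd1, the ectonucleotidase CD39, was at 7.705 against 18.4 RPKM at day 5 and 12.1 against 16.9 RPKM at day 3, and Lag3, an inhibitory receptor of lymphocytes and plasmacytoid dendritic cells, at 3.08 against 8.86 RPKM at day 5 and 4.25 against 6.22 RPKM at day 3. Among the 426 genes past the size rule, 15 had a microRNA symbol, 6 higher and 9 lower. How many of the 11138 compared genes have such a symbol was not counted, so the 15 cannot be set beside a share of all genes. They were picked by symbol alone, which can take in host transcripts, and their lengths were not looked at. None is described further.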
